A study of Mus musculus with 4 samples.

Results

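Enhancer E9 is one of the putative regulatory elements that the study placed in the Epidermal Differentiation Complex (EDC), the mouse chromosome 3 locus that holds the genes of the cornified skin barrier. It spans chr3:92928112-92934551 of the mm9 build, 6440 bp, and overlaps no annotated gene. The nearest coding genes are Gm4858, which ends 48.7 kb upstream, and Crnn, which starts 14.2 kb downstream. E9 lies inside the 4th of the 7 topologically associating domains (TADs) drawn in keratinocytes, 208 kb from the start of TAD4 and 595 kb from its end. Here every 5C contact with at least 1 HindIII fragment whose midpoint lies at chr3:92915000-92945000 was taken as an E9 contact. The window holds 10 fragments of the 712 in the data, and 4 of them overlap E9 itself. Its contacts number 3359 of the 111588 that any of the libraries lists.

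5C (Chromosome Conformation Capture Carbon Copy) counts ligation products between restriction fragments that were close to each other in formaldehyde-fixed nuclei. A TAD is a stretch of chromosome whose fragments contact each other more often than they contact their surroundings. Enhancers are thought to reach the promoters they act on through such contacts, and the EDC genes nearest to E9 are textbook targets of epidermal regulation. On the downstream side lie the genes of the S100-fused type protein family (Crnn, Flg2, Flg, Hrnr, Rptn, Tchh and Tchhl1), among them filaggrin, which packs keratin filaments in the upper epidermis. Farther on lie S100a11 and S100a10, which encode small S100 proteins. On the upstream side lie the Lce, Ivl and Sprr genes, whose products are crosslinked into the cornified envelope.

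The study made 2 5C libraries from keratinocytes and 2 from thymocytes, all from C57Bl/6 mice. Keratinocytes came from newborn epidermis and were plated for 15 h at 32 °C in low calcium medium, and the thymocytes were the total T cell population of crushed thymi, whose donors' age the labels do not give. All cells were fixed with 1% formaldehyde for 10 min. Keratinocytes kept in low calcium are not the terminally differentiated cells in which most of these genes are at their highest. Nothing in the labels ties libraries to animals, so p-values below measure only the spread between libraries. With 2 libraries against 2, the smallest two-sided p an exact permutation test can give is 0.333, and no difference of means could pass 0.05.

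The libraries list 3005 and 2510 E9 contacts in keratinocytes (libraries 1 and 2) and 1972 and 2244 in thymocytes (libraries 1 and 2). Of the 3334 contacts that leave the window, 2265 were listed in both keratinocyte libraries, 1568 in both thymocyte libraries and 1266 in all 4. The depth in reads is unknown, and a contact that is not listed has no value. Each contact has a corrected frequency, a frequency expected at its distance, and a Z score, the excess over that expectation in units of its standard deviation. The authors corrected each fragment for its total coverage, so the summed level of E9 was set by the correction and only its distribution along the locus could be compared. Over the 1266 shared E9 contacts the mean Z score was 0.56 and 0.63 in keratinocytes and 0.62 and 0.81 in thymocytes, beside 0.51, 0.58, 0.61 and 0.70 over all 23395 contacts in all 4 libraries. The Z scores of these E9 contacts correlated at 0.22 for the keratinocyte pair and 0.32 for the thymocyte pair, but also at 0.33 between keratinocyte library 2 and thymocyte library 1. Their other correlations between cell types were 0.04, 0.07 and 0.17.

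A 5C product is read through a forward probe that ends at one HindIII site and a reverse probe that begins at another, and each of their pairs is 1 contact. The 30 genomic bases of the probes behind the E9 contacts described below are given 5′ to 3′, with the bases of the HindIII site at which the pair is joined in capitals. Forward probes read the plus strand and reverse probes the minus strand, and each sequence equals mm9 at its position. The fragment of reverse probe 1021 overlaps E9 over 1626 of its 1809 bp, and its probe lies just past the end of E9.
E9 window, forward probe 1013, chr3:92920303-92920332: gtctctaagagaggatggtcatgaaagAAG
E9 window, forward probe 1016, chr3:92926617-92926646: tcaatttcaacctggtgctctcttattAAG
E9 window, reverse probe 1017, chr3:92927352-92927381: CTTgggggagttttctgattggaaataaaa
E9 itself, reverse probe 1019, chr3:92930932-92930961: CTTgttgtttctgaaactctgtacgtttgc
E9 itself, forward probe 1020, chr3:92932896-92932925: ctgtgctctcatgccacattttctatgAAG
Fragment across the downstream end of E9, reverse probe 1021, chr3:92934705-92934734: CTTcccttgggttcctttaccaacaggtct
Partner near Sprr2h, forward probe 801, chr3:92189329-92189358: aaccaattataccacctttacccccacAAG
Partner holding Flg, forward probe 1063, chr3:93099690-93099719: tggggaaggcctttgtctacagagccgAAG
Partner past Flg, reverse probe 1066, chr3:93109375-93109404: CTTtgatactttattcatatacatccttct
Partner before Tchh, forward probe 1113, chr3:93240785-93240814: gaaaaagactccagaaaagaagtgttcAAG
Partner at the start of Tchh, reverse probe 1114, chr3:93247397-93247426: CTTgagcaatcttgaaaaggaacaggagga
Partner before S100a11, reverse probe 1134, chr3:93321739-93321768: CTTtttggaaaaaggtagtcagaccaaggt
Partner in S100a10, forward probe 1151, chr3:93362371-93362400: tagagatgccagattcaagttcctgaaAAG

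In the genome sequence, the letters CCANNAGNNGGC from the core of the motif of CTCF, a protein found at many TAD borders, were searched on both strands. The 30 kb window holds 3 matches, and 1 of them lies inside E9, on the plus strand at chr3:92931168-92931179, shown with its flanks and the match in capitals.
E9, chr3:92931159-92931188: atatcacctCCACAAGTTGGCtgaagtttg
Such a match is common, since 71.6% of all 30 kb windows of the locus and 34.2% of its windows of the length of E9 hold 1 or more.

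In keratinocytes, E9 contacts had higher Z scores on the downstream side of the locus, towards Flg, Tchh and S100a10, than at like distances on the upstream side, towards the Lce genes. In thymocytes the sides were closer to each other. At 200 to 600 kb nearly all upstream partners lie past the TAD3 to TAD4 border drawn in keratinocytes. Nearly all downstream partners at this distance lie within TAD4. Side and border position thus go together in this comparison, and their parts were not tested. At 200 to 600 kb, the 215 downstream contacts had a mean Z score of 1.76 and 1.39 in keratinocyte libraries 1 and 2, and of 0.84 and 0.67 in thymocyte libraries 1 and 2. The 148 upstream contacts at the same distance had a mean Z score of -0.34, 0.10, 0.42 and 0.53 in the same order. Contacts of the locus at this distance without an E9 fragment averaged 0.45, 0.50, 0.60 and 0.62, so a mean near 0.5 rather than 0 was usual. The share of downstream contacts above their expected frequency was 82.8% and 65.6% in keratinocytes and 57.7% and 55.3% in thymocytes. The share of upstream contacts above it was 33.8% and 39.2% in keratinocytes and 56.8% and 57.4% in thymocytes.

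The downstream minus upstream mean Z score at 200 to 600 kb was thus 2.10 and 1.29 in keratinocytes and 0.42 and 0.14 in thymocytes. The keratinocyte mean of 1.69 ± 0.57 (SD, n = 2) exceeded the thymocyte mean of 0.28 ± 0.19 (SD, n = 2) by 1.41, and the libraries of the 2 cell types did not overlap (exact permutation p = 0.333). At 20 to 200 kb the side difference was 1.43 and 0.96 in keratinocytes and 0.34 and 0.23 in thymocytes, a difference between means of 0.91 (exact permutation p = 0.333). In this nearer class the cell types differed on the upstream side, where the 87 contacts had a mean Z score of -0.84, -0.51, 0.01 and 0.21, while the 97 downstream contacts had 0.59, 0.45, 0.35 and 0.45. By share the nearer downstream contacts went the other way, since 47.4% and 45.4% of them were above expected in keratinocytes and 60.8% and 62.9% in thymocytes. In the corrected frequencies themselves, the median at 200 to 600 kb downstream was 578 against an expected 345 in keratinocyte library 1 and 240.0 against 183 in keratinocyte library 2. It was 144 against 123 and 139 against 122 in thymocyte libraries 1 and 2. Upstream, the medians were 212 against 275, 142 against 154, 107 against 97.2 and 104 against 97.1 in the same order.

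Downstream contacts were on average nearer than upstream ones at 200 to 600 kb (350.4 kb against 463 kb). In 17 distance bins of 20 kb that held contacts on both sides, the mean side difference was 2.19 in keratinocyte library 1 but 0.47 in keratinocyte library 2, and it was -0.14 and -0.15 in the thymocyte libraries. The cell types did not overlap in these matched bins either, but the value in keratinocyte library 2 was under the unmatched one by more than 1.5 times. In the 9 such bins at 20 to 200 kb the values were 2.03, 1.22, 0.31 and 0.27.

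**Figure D1:**
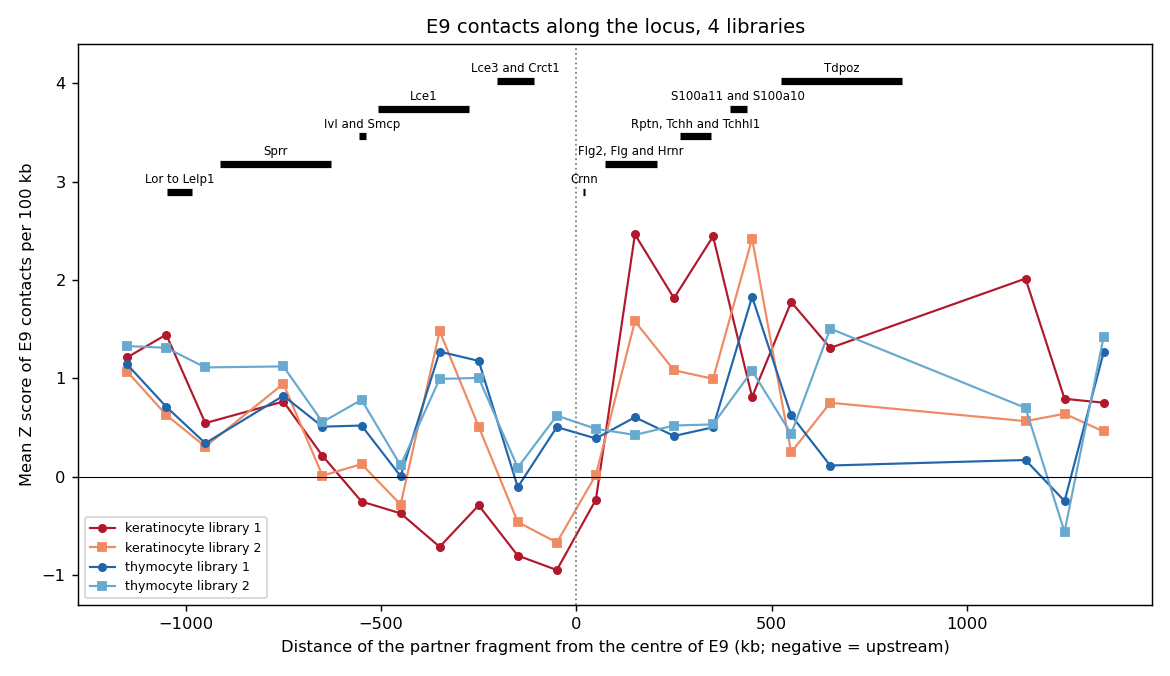
Mean Z score of E9 contacts listed in all 4 libraries (vertical axis) in 100 kb bins of distance from the centre of E9 (horizontal axis, kb), 1 line per library, with bins of under 5 contacts left out and gene groups drawn as bars. Both keratinocyte lines lie below 0 from -200 to 0 kb and above both thymocyte lines from 100 to 400 kb, with 2.46 and 1.58 against 0.61 and 0.43 in the bin from 100 to 200 kb.

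The side difference was a feature of the whole window rather than of 1 fragment. Of the 230 fragments in the data with at least 5 contacts on each side at 200 to 600 kb, 31.3% had a side difference above 0 in both keratinocyte libraries, and 10 of the 10 E9 fragments did. Of the same 230 fragments, 18.3% had both keratinocyte libraries above both thymocyte libraries, and 9 of the 10 E9 fragments did. The exception was the fragment of forward probe 1018, with 2.31 and 0.78 in keratinocytes and 0.93 and 0.22 in thymocytes. Above 0 in both thymocyte libraries were 35.7% of the fragments and 5 of the 10 E9 fragments. The median side difference over the E9 fragments was 1.61 in keratinocytes and 0.25 in thymocytes, beside -0.20 and 0.01 over the 220 other fragments. The 10 fragments are neighbours and share their partners, so they are not replicates.

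The fragment of reverse probe 1019, chr3:92928281-92930961, lies wholly in E9 and stood apart from its neighbours. Its mean Z score over 67 contacts in all 4 libraries was 2.19 and 1.05 in keratinocytes and 1.43 and 1.46 in thymocytes. This was the highest of the 10 in keratinocyte library 1 and in both thymocyte libraries. The coverage correction set the summed level of each fragment, so this mean describes the shared contacts only. The side difference of this fragment at 200 to 600 kb was 4.78 and 2.11 in keratinocytes and -1.23 and -2.63 in thymocytes. It rests on 5 upstream and 17 downstream contacts. The 67 shared contacts of this fragment were the fewest among the 10 fragments. Keratinocyte library 2 lists 142 of its contacts outside the window, beside 232 to 288 for the other fragments. The fragment of forward probe 1020, also wholly in E9, had 2.42 and 2.33 in keratinocytes and 0.96 and 0.54 in thymocytes, from 19 upstream and 21 downstream contacts.

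**Figure D2:**
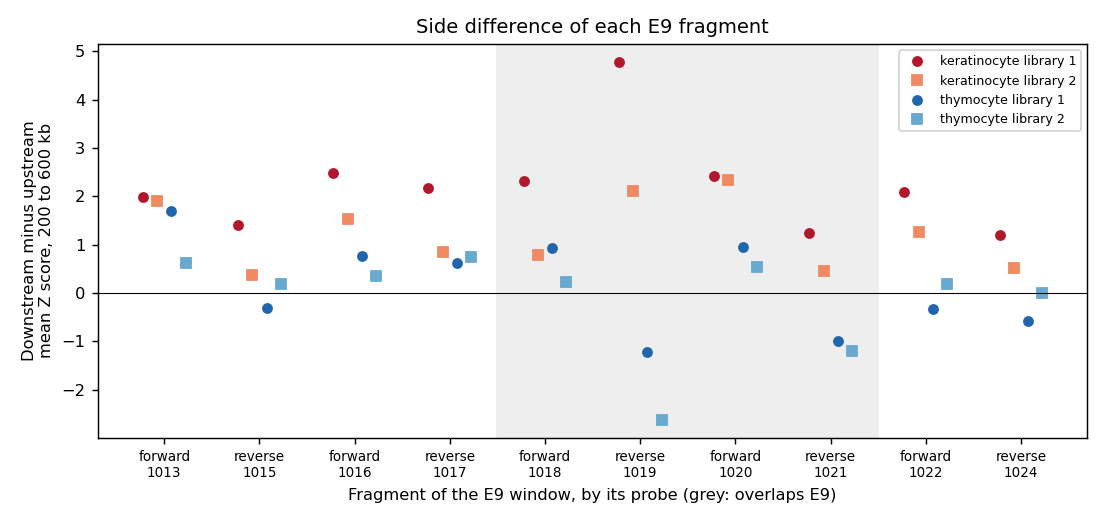
Downstream minus upstream mean Z score at 200 to 600 kb (vertical axis) of each fragment of the E9 window (horizontal axis, by probe, grey where the fragment overlaps E9), 1 point per library. Every keratinocyte point lies above 0, and the fragment of reverse probe 1019 spans the widest range, from -2.63 to 4.78.

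Neighbouring windows and the other enhancers of TAD4 were described the same way. The 30 kb just downstream of the E9 window, around Crnn, had a side difference at 200 to 600 kb of 0.60 and 0.47 in keratinocytes and -0.10 and 0.05 in thymocytes. The 30 kb just upstream, with 3 fragments, had 0.69 and 0.55 in keratinocytes and 0.22 and -1.03 in thymocytes. For windows of the same width around E10 and E11, the values in keratinocytes were -0.96 and 0.07, and -1.08 and -0.20, from as few as 6 downstream contacts for E11. At this distance E9 had the highest side difference of these 5 windows in each of the 4 libraries. The windows lie differently against the borders of TAD4, however. From E11 the downstream contacts at this distance leave TAD4, whereas from E9 nearly all upstream ones do. The ranking was not separated from border position. At 20 to 200 kb it did not, since E11 had 0.59 and 1.30 in keratinocytes and 0.38 and 1.69 in thymocytes, and the upstream window had 0.10, 0.36, 1.34 and 0.46. In keratinocyte library 1 alone was E9 the highest in this nearer class.

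The excess on the downstream side was also set against the other contacts of TAD4. At 200 to 600 kb, the 754 contacts with both fragments in TAD4 and none in the E9 window had a mean Z score of 0.06 and 0.14 in keratinocytes and 0.35 and 0.41 in thymocytes. The E9 downstream contacts exceeded these by 1.70 and 1.25 in keratinocytes and by 0.49 and 0.26 in thymocytes, so the difference between cell types was 1.10 (exact permutation p = 0.333). At 20 to 200 kb the excess was 0.84 and 0.45 in keratinocytes and 0.05 and 0.01 in thymocytes.

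**Figure D3:**
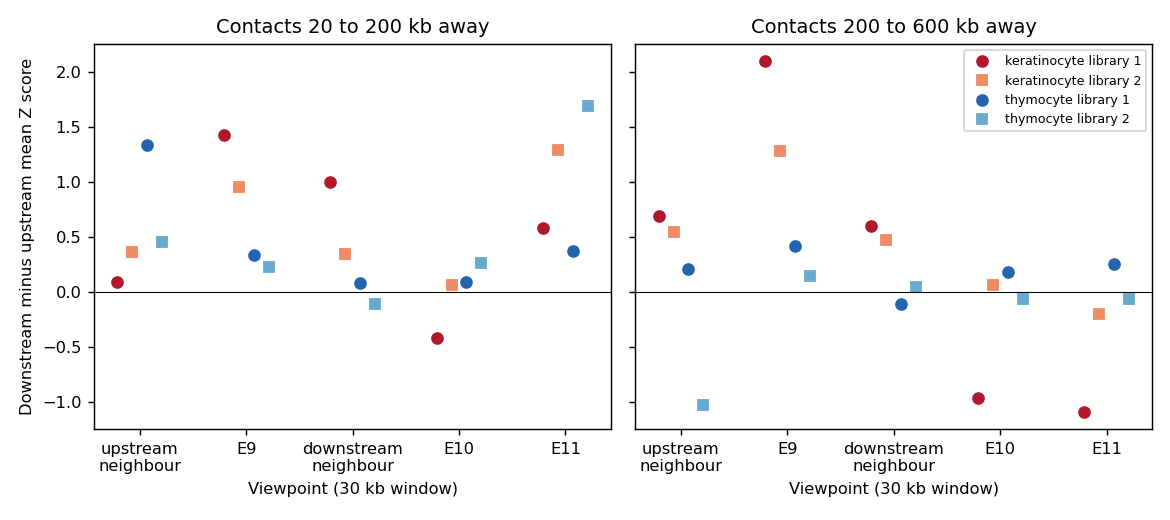
Downstream minus upstream mean Z score (vertical axis) for E9, its neighbouring 30 kb windows, E10 and E11 (horizontal axis), at 20 to 200 kb (left) and 200 to 600 kb (right), 1 point per library. In the right panel the keratinocyte points of E9, at 2.10 and 1.29, lie above those of the other windows.

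Among the gene groups of TAD4, E9 contacts had higher mean Z scores in keratinocytes from Flg2 to S100a10 and lower ones over Crnn and over Lce3a to Lce1m. Over Rptn, Tchh and Tchhl1, which encode proteins of the hair follicle's inner root sheath and the upper epidermis, the 81 contacts had a mean Z score of 2.63 and 1.43 in keratinocytes and 0.68 and 0.52 in thymocytes. Over S100a11 and S100a10 the 38 contacts had 1.13 and 1.09 against -0.14 and -0.04. The share of these above expected was 76.3% and 44.7% in keratinocytes and 31.6% and 36.8% in thymocytes. In keratinocyte library 2 their median frequency was 142 against an expected 162. Over Flg2, Flg and Hrnr the 64 contacts had 1.31 and 0.78 against 0.27 and 0.42. None of these libraries overlapped between the cell types. The differences of the means were 1.43, 1.20 and 0.70, each with an exact permutation p of 0.333. With medians they were 1.11, 0.33 and 0.18, and on the log2 ratio of observed over expected 0.50, 0.23 and 0.20, and the libraries overlapped for S100a11 and S100a10 in both of these. Without keratinocyte library 1 the differences over Rptn, Tchh and Tchhl1 and over Flg2, Flg and Hrnr fell to 0.83 and 0.43.

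Crnn, which encodes cornulin and is the nearest gene, went the other way. Its 33 contacts had a mean Z score of -0.43 and 0.31 in keratinocytes and 0.81 and 0.86 in thymocytes, a difference of -0.90 that was -0.52 without keratinocyte library 1. The contacts among the 10 fragments of the window had -0.25, 0.13, 0.89 and 0.97, with 22 of 25 pairs listed in each keratinocyte library and 25 of 25 in each thymocyte library. On the upstream side, the 68 contacts over Lce3a to Lce1m had -0.80 and -0.46 in keratinocytes against -0.10 and 0.09 in thymocytes. The 95 contacts over the Lce1 genes had -0.42 and -0.02 against 0.26 and 0.30, a difference of -0.50 that was -0.29 without keratinocyte library 1. The libraries did not overlap in these groups (exact permutation p = 0.333 each), and the keratinocyte values were the lower ones.

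Farther away the picture was mixed. Over the Sprr genes, small proline-rich envelope precursors, the 58 contacts had 0.57 and 0.45 in keratinocytes and 0.59 and 0.87 in thymocytes. Over Ivl and Smcp the 17 contacts had -0.12, -0.06, -0.14 and 0.64, and over Lor to Lelp1 the 28 contacts had 1.30, 0.03, -0.06 and 0.78, so that libraries of the 2 cell types overlapped. Over the gene desert the 106 contacts had 1.07, 0.65, 0.86 and 1.43. Over the S100 genes at the 5′ end, the 42 contacts had 0.12 and 0.33 in keratinocytes and 1.37 and 0.87 in thymocytes, a difference of -0.90 that turned to 0.33 with medians.

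Farther downstream, over the Tdpoz genes the 31 contacts had 1.58, 0.71, 0.17 and 1.53, and over Tuft1 and Cgn the 30 contacts had 0.07, 0.92, 0.02 and 0.93. In both groups the libraries of each cell type lay far apart, and the cell types overlapped.

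**Figure D4:**
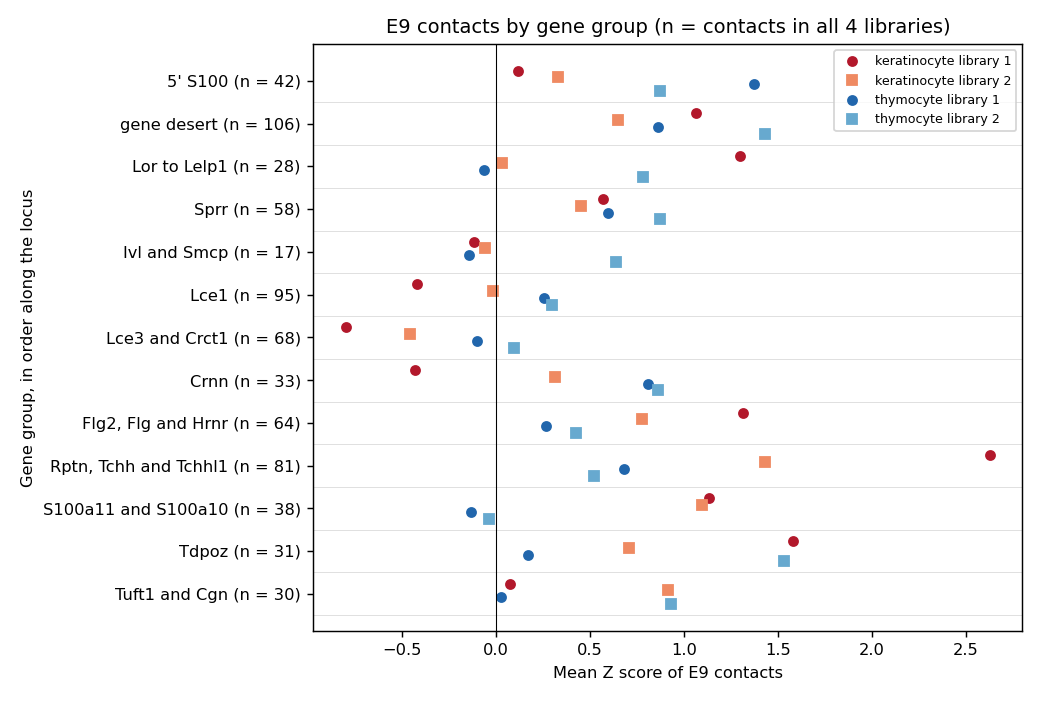
Mean Z score of E9 contacts (horizontal axis) by gene group in order along the locus (vertical axis, with the number of contacts in all 4 libraries), 1 point per library. The keratinocyte points lie right of the thymocyte points from Flg2 to S100a10 and left of them from Lce1 to Crnn.

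By TAD, the 406 shared contacts within TAD4 had a mean Z score of 0.88 and 0.74 in keratinocytes and 0.56 and 0.52 in thymocytes, a difference of 0.27 (exact permutation p = 0.333) that was 0.0085 with medians and -0.0021 on the log2 ratio. The mean of the domain joined opposite sides, since its 88 upstream contacts had -0.83, -0.51, 0.03 and 0.21 and its 318 downstream contacts had 1.36, 1.09, 0.71 and 0.61. In TAD3, just upstream, the 264 contacts had 0.11 and 0.20 in keratinocytes and 0.42 and 0.68 in thymocytes. In TAD1, TAD2, TAD5, TAD6 and TAD7 the libraries of the cell types overlapped, with differences from -0.61 (TAD7) to 0.22 (TAD5).

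Interactions were called where both libraries of a cell type had a deposited q-value, an adjusted p-value of the excess over expected, under 0.05. Outside the window this gave 35 E9 interactions of 2265 in keratinocytes (1.55%) and 63 of 1568 in thymocytes (4.02%). Over all contacts of the locus, 1.99% were called in keratinocytes and 4.03% in thymocytes, so E9 had no more interactions than the locus as a whole. Of the 35 keratinocyte interactions, 23 were also listed in both thymocyte libraries, and 4 of these were called in both cell types. The share called in both over the whole locus was not computed here, so the 4 cannot be read as many or few. Single libraries called 174 and 311 of the E9 contacts in keratinocytes and 259 and 338 in thymocytes. Most calls were thus not shared by the libraries of 1 cell type. With pairs inside the window, single libraries called 5.82% and 12.4% of E9 contacts in keratinocytes and 13.4% and 15.2% in thymocytes. Over all contacts the shares were close to these, at 5.99%, 11.4%, 11.7% and 14.5% in the same order.

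The positions of the called interactions followed the side difference. The q-values derive from the same Z scores, so these counts restate that difference and are not separate evidence for it. At 200 to 600 kb downstream, 17 of 301 E9 contacts were called in keratinocytes (5.65%), where 1.97% of all contacts at this distance were called, and 12 of 256 in thymocytes (4.69%), where 3.5% were. At the same distance upstream, 0 of 207 were called in keratinocytes and 4 of 185 in thymocytes. At 20 to 200 kb, keratinocytes called 3 of 115 downstream and 0 of 104 upstream, where 2.83% of all contacts were called, and thymocytes called 1 of 108 and 3 of 111, where 5.58% were. Within TAD4, keratinocytes had 20 interactions of 422 contacts downstream of E9 (4.74%) and 0 of 108 upstream, beside 1.99% over all contacts. Thymocytes had 13 of 371 downstream (3.5%) and 3 of 112 upstream (2.68%), beside 4.03% over all contacts. Over Rptn, Tchh and Tchhl1 alone, 12 of 104 contacts were called in keratinocytes and 3 of 91 in thymocytes.

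**Figure D5:**
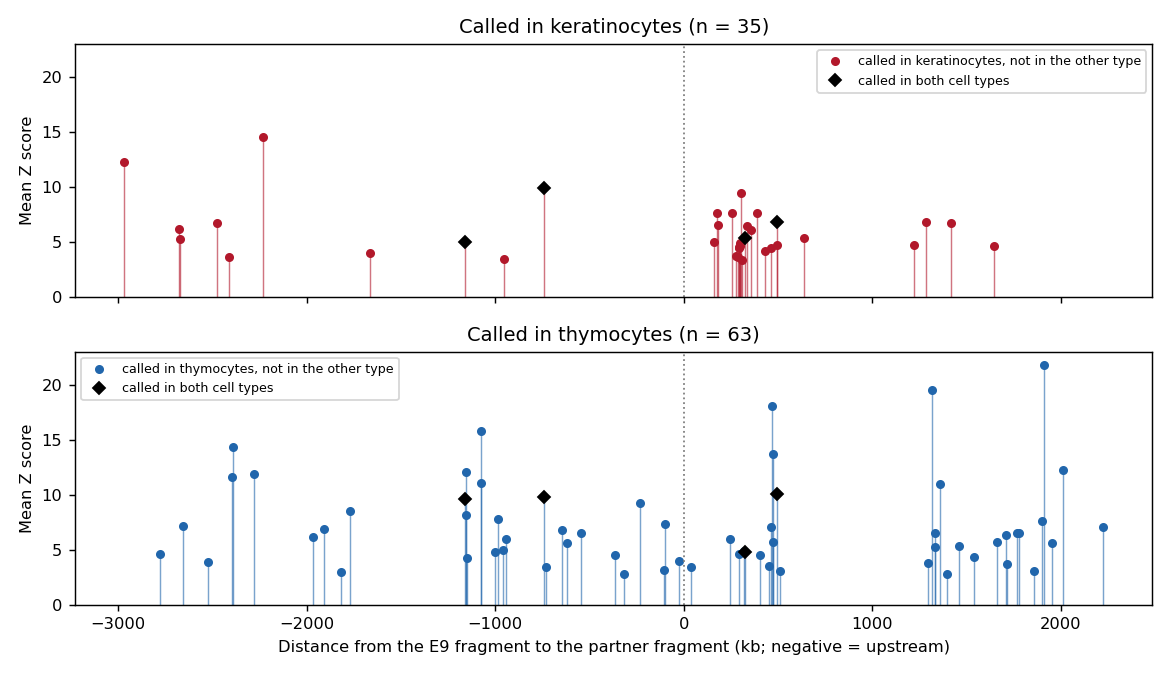
Interactions of the E9 window called in both libraries of a cell type, by distance to the partner (horizontal axis, kb) and mean Z score of that cell type (vertical axis), for keratinocytes (top) and thymocytes (bottom), with those called in both cell types as black diamonds. Of the 35 keratinocyte calls, 20 lie between 161 and 496 kb downstream, and the thymocyte calls spread over both sides.

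Within TAD4, the keratinocyte interaction nearest to E9 was with Flg. The fragment of reverse probe 1017, just outside E9, contacted the Flg fragment of forward probe 1063 at 161 kb with a corrected frequency of 1509 and 1157 in keratinocytes, against an expected 575 and 312. In thymocytes the same contact had 365 and 345 against 262 and 251. The Z score was 3.95 and 6.00 in keratinocytes and 1.16 and 1.21 in thymocytes. That partner fragment also holds the start of Flg, and of the 5 E9 fragments that can pair with it, 5 were listed in keratinocyte library 1 but only 1, 1 and 3 in the others.

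The annotation gives Flg in several pieces, and the fragment of reverse probe 1066, 7.08 kb past the last of them, was called with 2 E9 fragments. With forward probe 1020, inside E9, its Z score was 12.15 and 3.18 in keratinocytes and -0.30 and 0.29 in thymocytes. With forward probe 1016 it was 6.59 and 6.52 in keratinocytes and 2.09 and 0.96 in thymocytes. In both contacts each keratinocyte value was above each thymocyte value.

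Around Tchh, which encodes trichohyalin, the fragment of reverse probe 1021 contacted that of forward probe 1113, 5.44 kb before the gene, with Z scores of 4.32 and 14.66 in keratinocytes and 5.22 and -0.79 in thymocytes. Forward probe 1016 contacted a fragment 8.75 kb past Tchh (10.39, 2.52, 1.14 and 0.59) and one 3.15 kb past Tchhl1 (9.46, 2.84, 0.81 and 0.82). The groups overlapped in the first of these contacts and not in the other two. The start of Tchh itself, in the fragment of reverse probe 1114, was called in both cell types with forward probe 1013, with Z scores of 4.81, 5.95, 4.98 and 4.60. Its corrected frequency was 1120 and 667 in keratinocytes and 399.7 and 323 in thymocytes, against an expected 358, 172, 123 and 119.

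S100a11 and S100a10 encode annexin-binding proteins. The fragment 2.64 kb before S100a11 (reverse probe 1134) contacted forward probe 1020 with a corrected frequency of 979.8 and 1085 in keratinocytes, against an expected 306 and 182. In thymocytes the frequency was 178 and 138 against 123 and 105, and the Z scores were 4.43, 10.87, 1.04 and 0.86. A fragment within S100a10 (forward probe 1151) contacted reverse probe 1019 with Z scores of 3.20 and 5.18 in keratinocytes and 0.66 and -1.38 in thymocytes. A contact of forward probe 1020 with a fragment in Gm17426, before Rptn, was also called in keratinocytes but overlapped between cell types (2.96, 12.29, 9.38 and 1.87).

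A stretch 15 to 45 kb past S100a10 held interactions of the other kind, and it was picked after its values were seen. Thymocytes called 6 of 37 contacts there, from 5 different E9 fragments, and keratinocytes 2 of 57, where 3.5% and 1.97% of all contacts at 200 to 600 kb were called. The mean Z score of its 31 shared contacts was 0.82 and 3.01 in keratinocytes and 3.38 and 1.79 in thymocytes, so keratinocyte library 2 lay with the thymocytes. The highest of these was forward probe 1013 with reverse probe 1161, with Z scores of 1.10 and 5.53 in keratinocytes and 17.62 and 18.44 in thymocytes. Reverse probe 1015 with the fragment 22.7 kb past S100a10 had 1.95 and 4.60 against 12.11 and 15.36. Forward probe 1013 with reverse probe 1173 was called in both cell types (3.49, 10.19, 14.06 and 6.03).

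Thymocytes also called contacts closer to the genes of TAD4. Reverse probe 1017 and a fragment in Tchh had Z scores of 5.89 and 3.92 in thymocytes and 0.01 and 1.72 in keratinocytes, without overlap. Reverse probe 1024, next to Crnn, contacted the fragment of forward probe 1113 before Tchh with 4.69 and 4.46 in thymocytes and -1.21 and 5.55 in keratinocytes, so that the keratinocyte libraries lay on either side. The contact of forward probe 1013 with Lce1m, 96.1 kb upstream, had 11.38 and 3.30 in thymocytes and was not listed in keratinocytes.

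The other 2 interactions called in both cell types ran upstream from reverse probe 1019, inside E9. The partner of forward probe 801, 0.249 kb from Sprr2h, lies 741 kb away and had Z scores of 3.70 and 16.09 in keratinocytes and 10.13 and 9.52 in thymocytes. Its corrected frequency was 388, 676, 327 and 314 against an expected 133, 85.5, 73.8 and 69.7. The partner of forward probe 643, 48.2 kb from Pglyrp3, had 3.33, 6.70, 11.93 and 7.20. The cell types overlapped in the Sprr2h contact, and in the Pglyrp3 contact both thymocyte values were the higher ones.

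Outside TAD4, keratinocytes called 15 interactions and thymocytes 47. By TAD, the keratinocyte interactions made up 0% (TAD7) to 2.78% (TAD5, 1 of 36) of contacts listed in both libraries, beside 1.99% over the locus. The thymocyte interactions made up 0% (TAD5) to 6.17% (TAD7), beside 4.03% over the locus. The keratinocyte ones with the highest mean Z score were with fragments 144 kb from Pglyrp4 in TAD2 (6.28 and 22.79, not listed in thymocytes) and within Nup210l in TAD1 (9.04 and 15.46, with -0.72 and 4.61 in thymocytes). Others, not listed in thymocytes, were near Ints3 in TAD1 (2.69 and 9.70) and at Lingo4 (3.86 and 9.82) and Snx27 (4.07 and 9.42) in TAD6. The contact near S100a7a in TAD1 had 2.71 and 10.71, with 5.93 in the 1 thymocyte library that lists it, and that near Gm5773 in TAD5 had 2.71 and 7.99, with -1.51 and 3.79 in thymocytes, so both overlapped between cell types. In each of these the value in keratinocyte library 2 was the higher one.

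The thymocyte interactions outside TAD4 reached higher Z scores. The contact of forward probe 1013 with a fragment 4.77 kb from Psmd4 in TAD7 had 23.40 and 20.20 in thymocytes and 0.01 and 5.23 in keratinocytes. That of reverse probe 1024 with a fragment 2.53 kb from Mrpl9 in TAD6 had 21.10 and 17.93 against 1.01 and 1.59. Contacts with Pglyrp4, a peptidoglycan recognition protein gene, had 14.60 and 14.02 against -0.04 and 1.52 for forward probe 1016, and 6.28 and 17.01 against 1.20 and 3.98 for reverse probe 1017. Near Pglyrp3, the contact of reverse probe 1015 had 13.72 and 17.87 against 1.58 and 4.19. For the Psmd4, Mrpl9, Pglyrp4 and Pglyrp3 contacts the expected frequency was low, from 9.14 to 59.4 in the thymocyte libraries. Their corrected frequency there ran from 78.5 to 539. What part the low expectation had in these Z scores was not tested.

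For the other gene starts, few E9 contacts were listed in all 4 libraries. The fragment with the start of Crnn had 4, with a mean Z score of -0.35, 0.50, 1.18 and 0.83. That of Pglyrp4 had 2, with -0.33, 2.09, 6.46 and 6.73, and that of Cgn, a tight junction protein gene, had 3, with 0.29, 2.98, -0.96 and -0.47. That of Npr1 had 1, with -0.49, -0.63, -1.20 and 2.59. For the fragments with the starts of Hrnr, S100a10, Ints3, Them5 and Lingo4 no E9 contact was listed in all 4. For the starts of Flg2, Rptn, Tchhl1, S100a11 and Sprr2h no fragment was found in the data.

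Contact by contact, limma was fitted to the Z scores of all 23395 contacts in all 4 libraries. No E9 contact passed an adjusted p of 0.05, and neither did any other contact (background 0%). The smallest adjusted p among the 1286 E9 contacts was 0.767. At an unadjusted p under 0.05, 44 E9 contacts were higher in keratinocytes (3.42%, beside 2.97% of all contacts) and 44 were lower (3.42%, beside 2.14%). In the fitted differences, 159 of the 215 contacts at 200 to 600 kb downstream were higher in keratinocytes (74%, median difference 0.78), and 47 of the 148 upstream were (31.8%, median -0.43). At 20 to 200 kb, 45 of 97 downstream and 13 of 87 upstream contacts were higher in keratinocytes. Over all 23395 contacts the share was 49.3%. Contacts share fragments and are not independent, so these shares carry no test.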

How the data were processed

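The 4 libraries were grouped by cell type and replicate number from their titles. Per the study's methods and the submitters' processing notes, the authors aligned reads with Bowtie, assigned them to probe pairs on mm9, removed outlying probes and single contacts, and corrected each probe for coverage with a Loess fit. The deposited signal columns are this corrected frequency, the expected frequency and its standard deviation. The deposited score is the Z score. The authors added, for each library, a p-value from a Weibull fit with its q-value, and other columns hold distances. Raw counts were not used here, so depth and counting error are unknown.

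Contacts with a fragment midpoint in the window were E9 contacts. Means over libraries used contacts listed in all 4 and excluded pairs inside the window. Gene groups reached 10 kb beyond their genes (GENCODE, mm9). One gene group outside TAD4 is not reported here, for a reason other than its values. TAD borders and enhancers were the study's. Cell types were compared with exact permutation tests and with limma 3.58.1 (lmFit, and eBayes with trend) under Benjamini-Hochberg adjustment over all contacts, tested on simulated data first. Named contacts were up to 10 called in TAD4 and 8 outside, per cell type, by mean Z score, those called in both, and fixed gene starts; the S100a10 fragment of probe 1151 was added after its values were seen. Alternatives covered thresholds, the log2 ratio of observed over expected, medians, listed contacts, fragments, borders, single libraries and a replicate block. The members and lists were chosen with earlier results of these data known.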

Additional observations from a re-analysis of the deposited data

Results flagged for a closer look

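For 2 of the 10 fragments, one inside E9 and one across its downstream end, the side difference at 200 to 600 kb had opposite directions. The downstream minus upstream mean Z score was above 0 in both keratinocyte libraries and below 0 in both thymocyte libraries. This opposite direction was not tested. The 2 fragments were picked by this rule, and the share that meets it among the 230 fragments was not computed. The fragment of reverse probe 1019 had 4.78 and 2.11 against -1.23 and -2.63, a difference between means of 5.37. The fragment of reverse probe 1021 had 1.24 and 0.45 against -0.99 and -1.19, a difference of 1.935. They rest on 5 and 10 upstream contacts.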

How the results depend on the processing

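The side difference at 20 to 200 kb and at 200 to 600 kb kept its direction in 20 of 20 alternatives. Leaving out 1 library gave 0.67 to 1.14 and 1.01 to 1.82. The replicate block and the runs without 1 library could not turn it, so they are no separate support. In both distance classes each keratinocyte library already lay above each thymocyte library. Counts of called interactions depended on the threshold and the libraries. In keratinocytes they were 17 at a q-value under 0.01, 56 under 0.1, 13 with only the fragments overlapping E9 and 23 among contacts listed in all 4 libraries. In thymocytes the fragments overlapping E9 gave 24. With 1 library left out, the remaining one alone gave 174 to 311 in keratinocytes and 259 to 338 in thymocytes.

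By TAD, the difference between cell types turned with medians in TAD1 (0.13), TAD2 (0.24), TAD6 (0.46) and TAD7 (0.068). It turned on the log2 ratio in TAD2 (0.074), TAD4 (-0.0021) and TAD6 (0.077), and with only the fragments overlapping E9 in TAD5 (-0.10) and TAD6 (0.29). By gene group it turned with medians over the 5′ S100 genes (0.33), the gene desert (0.23) and the Sprr genes (0.082), and on the log2 ratio over the desert (0.11). It turned with every contact a library lists over Lor to Lelp1 (-0.073) and over Tuft1 and Cgn (-0.61), and with only the fragments overlapping E9 over Ivl and Smcp (0.056). With 1 library left out the range crossed 0 for TAD1 (-0.75 to 0.10), TAD2 (-0.73 to 0.018), TAD5 (-0.62 to 1.06), Lor to Lelp1 (-0.32 to 0.94), Ivl and Smcp (-0.73 to 0.056), Tdpoz (-0.39 to 0.98) and Tuft1 and Cgn (-0.43 to 0.47). The cause was not tested. The groups from Flg2 to S100a10, Crnn, Lce3 and Lce1 kept their direction in every alternative run. Their libraries did not overlap, so the replicate block and the runs without 1 library could not turn them.

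Same-numbered libraries deviated in opposite directions over the E9 contacts (r = -0.13) and less over all contacts (r = -0.09), so the numbers were not taken as pairs. A replicate block left 0 E9 contacts past an adjusted p of 0.05, and left every mean difference between cell types at its value, as for TAD4 (0.27). The crossed pairing, added after seeing the data, gave 1.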
